A study of Mus musculus with 12 samples.

Results

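The genes described here are 47 genes of the lysosome: the 4 members of the MiT/TFE family of transcription factors, 5 lysosomal membrane proteins, 10 cathepsins, 5 lipid and sterol enzymes or carriers, 10 glycosidases and other hydrolases, and 13 subunits of the vacuolar proton pump (V-ATPase). They are 47 of 21887 protein-coding genes in the RefSeq table used here. They were named one by one rather than picked by a threshold, with earlier results of these data known. A peak was counted for a gene when its centre lay inside the gene, and otherwise for the nearest protein-coding gene within 100 kb. ATAC-seq, which marks accessible DNA with a transposase, was done on 12 libraries of sorted myeloid cells of C57BL/6J mice, 2 libraries in each of 6 groups. The authors deposited 1 list of reproducible peaks per group, made from both libraries.

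KC-H holds Kupffer cells, macrophages that reside in the liver, sorted as F4/80-high and Tim4-positive from mice on a control diet. KC-N holds cells of the same gate from mice on a NASH diet, which models non-alcoholic steatohepatitis. KN-RM holds F4/80-high, Tim4-negative Kupffer cells, Ly6CHi-RM and Ly6CLo-RM hold CD11b-high recruited liver macrophages with high or low Ly6C, and Blood-Ly6CHi-NASH holds Ly6C-high monocytes from blood; all 4 are from mice on the NASH diet. The sources used here do not give the age of the mice or how many were used per library. KC-H is the sole group on the control diet. Blood cells were not taken from digested liver, and in comparisons with them tissue cannot be told apart from isolation.

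Lysosomes are acidic organelles in which macrophages break down what they engulf and recycle what they degrade by autophagy. The V-ATPase acidifies them: its V1 sector hydrolyses ATP outside the membrane and its V0 sector carries protons through it. TFEB, TFE3, MITF and TFEC bind short E-box sequences, and many lysosomal genes carry such a sequence, the CLEAR element, near their start. In Kupffer cells, this machinery handles senescent red cells, bacteria from the gut and lipid.

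The 6 lists differed in length, from 34293 peaks in KN-RM to 69616 in the blood list, and the other 4 held 50550 to 63501. Counts are therefore given for the lists as deposited and for equal-length lists, which keep the best-scored 34293 peaks of each. Rank within a list is given as a percentile of the authors' score, with 100 the best. The Kupffer cell markers had 108 peaks at 8 genes in KC-H, 50 in KC-N, 33 in KN-RM and 17 to 24 in the other 3 lists, and Timd4, the gene of the sort marker Tim4, had 17 peaks in KC-H, 1 in KC-N and Ly6CLo-RM, and 0 in the other 3 lists. The 10 neutrophil markers had 11, 8, 5, 9, 17 and 19 peaks in KC-H, KC-N, KN-RM, Ly6CLo-RM, Ly6CHi-RM and blood; Ly6g, Elane, Ngp and Camp had 0 in every list, whereas Csf3r had 4 to 8 and S100a9 1 to 3. With 1 list per group there is no spread between libraries, so the differences are given as values, with no test and no p-value. Whether a region is open in fewer cells or less open in each cell cannot be told apart in these bulk samples.

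Many lysosomal genes carry the CLEAR element near their start, so the sequences there were read first. Sites outside the start windows were not searched. RefSeq windows of GRCm38.p6, from 250 bases before a start to 50 after it, were matched by gene identifier for 37 of the 47 genes. The table's start lay within 50 bp of the outer end of the annotated gene at 28 of them and 56 to 976 bp inside it at the other 9, the farthest being that of Atp6v0a1. The table has no entry for Asah1, Atp6v0d2, Atp6v1b2, Atp6v1c1, Atp6v1g1, Atp6v1h, Ctsb, Ctse, Ctsh and Npc1. The 8-base core of the CLEAR element, TCACGTGA, which reads the same on both strands, lay in the windows of 6 of these 37 genes (16.2%, 95% Wilson interval 7.65% to 31.1%) and in those of 1.41% of 17492 genes with a window. The 6 genes encode the pump subunits Atp6v0d1 and Atp6v1a, the protective protein Ctsa, the aspartic protease Ctsd, the alpha-galactosidase Gla and the lysosomal calcium channel Mcoln1. Their 8 sites are shown because all of them lie in windows that overlapped a peak in every one of the 6 lists. Each is written 5′ to 3′ on the strand of the gene, with the core in capitals and 10 bases on either side. The number after the name is the position of the first capital from the start in the table, which lies 443 bp inside the gene for Atp6v1a and, in the window shown, 901 bp inside it for Ctsa.
Atp6v0d1, -4, chr8:105566051-105566078, minus strand: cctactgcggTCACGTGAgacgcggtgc
Atp6v1a, -132, chr16:44139374-44139401, minus strand: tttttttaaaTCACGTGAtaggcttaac
Ctsa, -13, chr2:164833750-164833777, plus strand: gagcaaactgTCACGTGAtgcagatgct
Ctsa, 5, chr2:164833767-164833794, plus strand: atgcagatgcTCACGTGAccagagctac
Ctsd, -99, chr7:142387909-142387936, minus strand: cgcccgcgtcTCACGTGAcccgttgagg
Gla, -228, chrX:134601216-134601243, minus strand: aagcgattgaTCACGTGAgcatctacgt
Gla, -195, chrX:134601183-134601210, minus strand: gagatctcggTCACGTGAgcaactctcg
Mcoln1, -46, chr8:3500463-3500490, plus strand: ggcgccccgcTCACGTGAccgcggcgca

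The 250 bases before the start of Ctsd and of Gla show how differently such sites are set. This pair was chosen after the values were seen, as the protease gene with 1 core and the galactosidase gene with 2. Capitals mark the cores.
Ctsd, chr7:142387828-142388077, minus strand: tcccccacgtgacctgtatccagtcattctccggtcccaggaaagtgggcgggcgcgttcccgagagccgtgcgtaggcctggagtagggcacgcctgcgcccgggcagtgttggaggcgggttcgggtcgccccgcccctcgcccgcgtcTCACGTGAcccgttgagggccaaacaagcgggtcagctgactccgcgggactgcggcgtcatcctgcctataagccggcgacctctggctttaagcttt
Gla, chrX:134601006-134601255, minus strand: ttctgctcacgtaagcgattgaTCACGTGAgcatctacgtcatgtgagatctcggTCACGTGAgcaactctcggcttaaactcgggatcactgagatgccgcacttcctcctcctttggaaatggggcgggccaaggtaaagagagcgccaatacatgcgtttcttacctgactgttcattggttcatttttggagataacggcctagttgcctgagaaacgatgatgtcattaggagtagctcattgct

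The peaks over these 6 windows were well ranked at 4 genes and lower at the other 2. At Atp6v0d1 the window peak ranked between the percentile 85.6 in blood and 93.4 in KC-H. At Gla it ranked between 79.9 in KN-RM and 93.9 in KC-N, and at Ctsd between 78.8 in KN-RM and 89.1 in KC-H. At Atp6v1a it ranked between 68.4 in KN-RM and 83.1 and 83.5 in KC-H and Ly6CLo-RM. At Mcoln1 it ranked 79.9 in KC-H, 74.5 in Ly6CLo-RM, 64.1 in Ly6CHi-RM, 55.7 in KC-N, 51.1 in KN-RM, then 49.4 in blood. In the Ctsa window that holds both sites it ranked 77.1 in KC-H, 55.6 in KN-RM, 51.6 in Ly6CLo-RM, 45.9 in KC-N, 42.7 in Ly6CHi-RM and 39.7 in blood. KC-H gave the best rank at Atp6v0d1, Ctsd, Mcoln1 and Ctsa, and not at Gla or Atp6v1a.

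Other motifs were searched on both strands of the same windows. The 6-base E-box CACGTG, which the CLEAR core contains, was in the windows of 12 of the 37 genes (32.4%, 19.6% to 48.5%) and of 8.91% of all genes with a window; Lamp1 had 4 of them. TCATGTG, the M-box of MITF targets, whose other strand reads CACATGA, was at 7 genes (18.9%, 9.48% to 34.2%) against 3.56%, among them Scarb2, Ctss, Ppt1 and Tpp1. The 10-base palindromic form of the CLEAR element was at 0 of the 37 genes and at 82 genes (0.469%) in all. Across the genome, 181 of 7130 genes with a window open in all 6 lists had the core (2.54%), as did 32 of 9000 genes with no window open in any list (0.356%). Of the 33 genes described here with a window open in all 6 lists, 6 had the core (18.2%). For the M-box the order over all genes was the reverse, 1.89% of the 7130 and 4.74% of the 9000, and 7 of the 33 genes had it (21.2%). A match of letters is a description of the sequence and does not show that a protein was bound.

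Gene starts of this set were open almost throughout. A peak overlapped a window of 35 of the 37 genes in KC-H, 34 in KC-N and Ly6CHi-RM, and 33 in KN-RM, Ly6CLo-RM and blood. The shares ran from 89.2% (75.3% to 95.7%) to 94.6% (82.3% to 98.5%), and those of all genes with a window from 42.8% in KN-RM to 50.3% in blood. At 4 genes a window peak was missing from at least 1 list. Ctsk, whose product is the collagen-cleaving protease of osteoclasts, had no peak over its window in any list. Atp6v0a1 had none over its window, which was built 976 bp inside the gene, but its outer start at chromosome 11, 101009422, lay in a region held by all 6 lists (101009298 to 101009546), at percentiles of 80.9 in KN-RM to 89.3 in Ly6CHi-RM. The window of Ctsf, another cysteine protease gene, had a peak in KC-H alone, with a score of 58 at percentile 60.1. That of Tfec had a peak in KC-H, KC-N and Ly6CHi-RM, at percentiles of 28.3, 18 and 6.20.

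**Figure D1:**
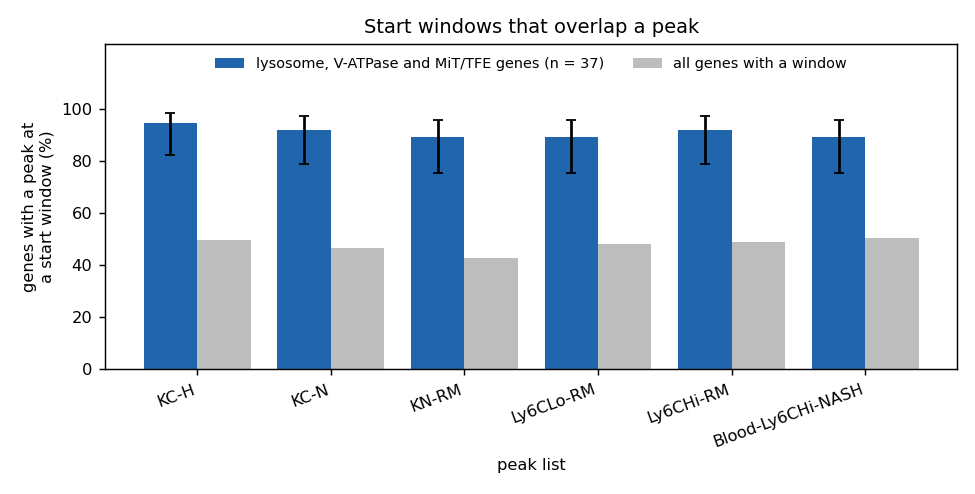
Share of genes whose start window (250 bases before to 50 after the start in the table) overlapped a peak, in percent, for the 37 genes with a window and for all 17492 such genes, in each of the 6 lists; bars start at 0 and error bars on the 37 genes are 95% Wilson intervals, which cover counting error only. The 37 genes lie between 89.2% and 94.6% and all genes between 42.8% and 50.3%.

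The number of peaks at the 47 genes followed the length of the list only in part. The deposited lists held 376 such peaks in KC-H, 306 in KC-N, 218 in KN-RM, 262 in Ly6CLo-RM, 298 in Ly6CHi-RM and 293 in blood. As a share of the list this was 0.592%, 0.605% and 0.636% in KC-H, KC-N and KN-RM, then 0.480% in Ly6CLo-RM, 0.485% in Ly6CHi-RM and 0.421% (0.375% to 0.472%) in blood. All 3 F4/80-high lists thus gave these genes a larger share than the other 3 did. In equal-length lists the counts were 221, 232, 218, 195, 192 and 153 in the same order, or 0.644%, 0.677%, 0.636%, 0.569%, 0.560% and 0.446% of the list. Every gene of the set except Ctsf had at least 1 peak in every list, whereas 54.1% to 68.1% of all protein-coding genes had a peak. The median gene of the set had 4 to 6 peaks, and the median of all genes was 1 or 2.

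**Figure D2:**
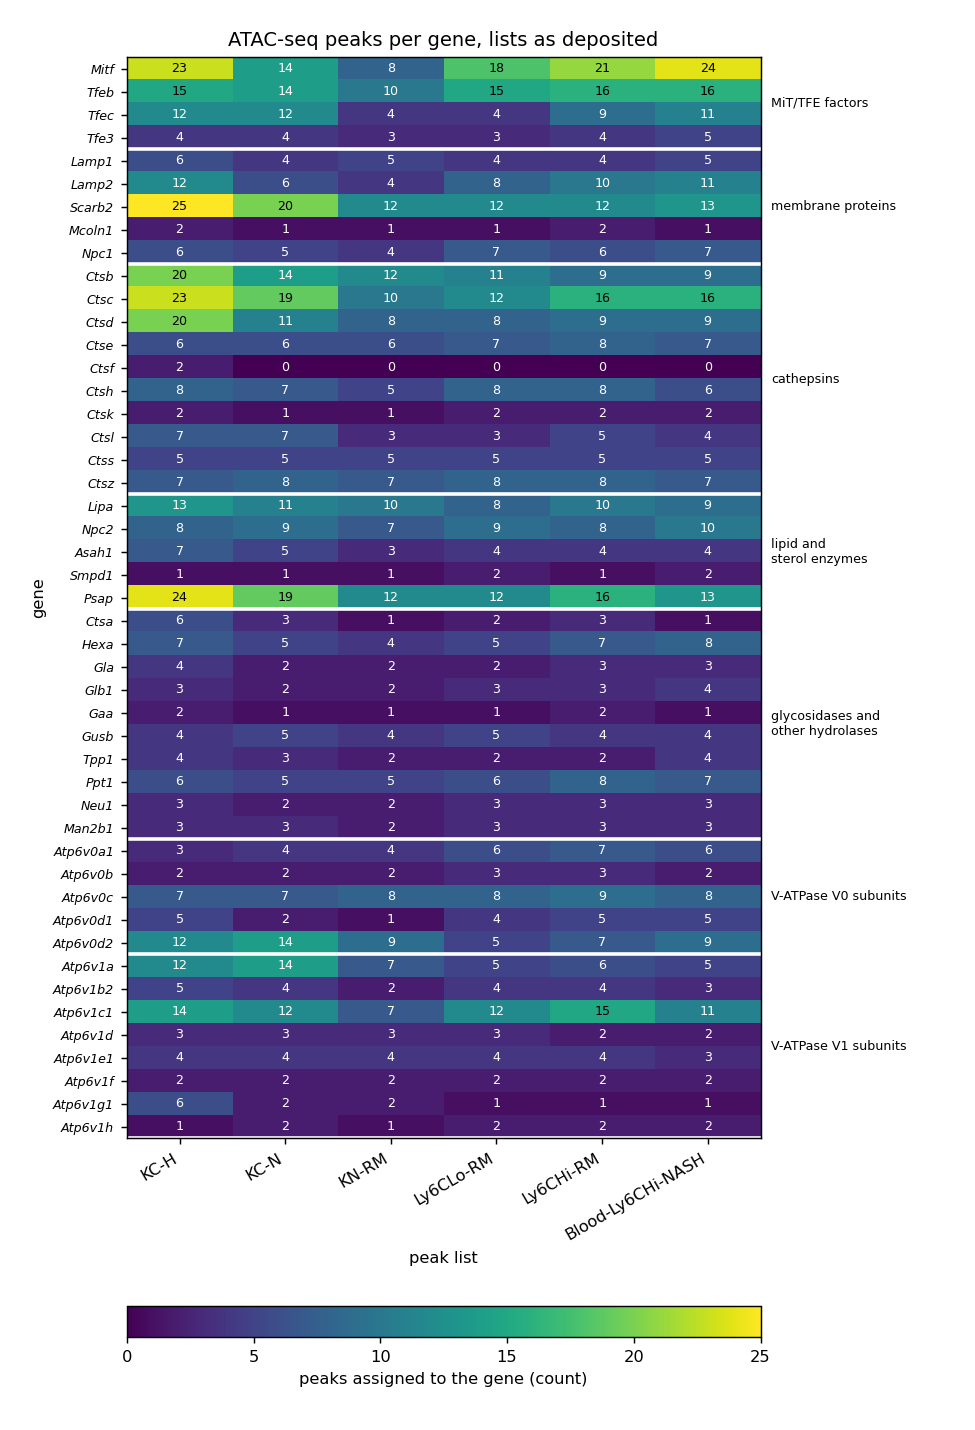
Number of peaks assigned to each of the 47 genes (rows, ordered by role) in each deposited list (columns); each cell prints the count and brighter cells (yellow) hold more peaks. Scarb2, Psap, Ctsb and Ctsd are brightest in KC-H, Ctss has 5 and Atp6v1f has 2 in every list, and Ctsf has 2 in KC-H and 0 elsewhere.

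Among the transcription factors, Mitf and Tfeb had many peaks and Tfe3 few. Mitf (chromosome 6, 97807002 to 98021360, 214 kb) had 23 peaks in KC-H, 14 in KC-N, 8 in KN-RM, 18 in Ly6CLo-RM, 21 in Ly6CHi-RM and 24 in blood. With equal-length lists these were 10, 9, 8, 11, 14 and 11, so that each F4/80-high list had fewer than each of the other lists. That order did not hold in the deposited lists or with peaks ranked by tag count. Mitf has 3 start windows in the table: the first had a peak in every list, at percentiles of 91.8 to 99.0, and the other two had none. At 189 kb into the gene a region at chromosome 6, 97995820 to 97996042, was held by Ly6CLo-RM, Ly6CHi-RM and blood and by no F4/80-high list, with scores of 45, 44 and 54. The nearest KN-RM centre was 129176 bp from the blood peak.

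Tfeb, the best known regulator of lysosome formation (chromosome 17, 47737037 to 47792416), had 15, 14, 10, 15, 16 and 16 peaks in KC-H, KC-N, KN-RM, Ly6CLo-RM, Ly6CHi-RM and blood. With equal-length lists it had 11, 12, 10, 13, 11 and 9, with no separation by sort gate, and a mean of 11 in both sets of 3 lists. Of its 19 merged regions, 9 (47.4%) were in all 6 lists. At 47757167 to 47757419 of Tfeb lay a region held by all 5 liver lists and not by blood, whose peak in Ly6CHi-RM scored 95 (percentile 81.5) with the nearest blood centre 2598 bp away. Another, at 47784482 to 47784724, was held by KC-H, KC-N, Ly6CHi-RM and blood but not by KN-RM or Ly6CLo-RM; its blood peak scored 79 (percentile 75.9).

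Tfec, a family member largely restricted to myeloid cells, had 12 peaks in KC-H and KC-N, 4 in KN-RM, 4 in Ly6CLo-RM, 9 in Ly6CHi-RM and 11 in blood. Its peaks were of middling rank, with a best percentile of 44.0 in KN-RM and 86.0 in blood. Equal-length lists gave 5, 6, 4, 2, 3 and 5. Tfe3, an X-linked gene of 12.7 kb, had 4, 4, 3, 3, 4 and 5 peaks in the order of the lists above, and 3 of its 5 merged regions were in all lists.

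Membrane proteins of the lysosome were led by Scarb2, which encodes LIMP-2, the receptor that carries glucocerebrosidase to the lysosome (chromosome 5, 92441311 to 92505657). Scarb2 had 25 peaks in KC-H, 20 in KC-N, 12 in each of KN-RM, Ly6CLo-RM and Ly6CHi-RM, and 13 in blood. Equal-length lists set them in order: 17, 15 and 12 in the F4/80-high lists, then 10 in Ly6CLo-RM, 9 in Ly6CHi-RM and 5 in blood. Its start ranked between percentiles 94.6 and 99.6 in every list. Regions of Scarb2 at 92465568 to 92465801 and at 92487357 to 92487566, both inside the gene, were held by the 3 F4/80-high lists alone.

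Lamp1 and Lamp2 encode the main glycoproteins of the lysosomal membrane. Lamp1 had between 4 and 6 peaks in each list, while Lamp2 had 12 in KC-H, 6 in KC-N, 4 in KN-RM, 8 in Ly6CLo-RM, 10 in Ly6CHi-RM and 11 in blood. With equal-length lists Lamp2 had 3 to 5 in each list, so its spread in the deposited lists was in the lower-scored peaks. Npc1, the cholesterol exporter, had 4 to 7 peaks, and Mcoln1 had 1 or 2.

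The 10 cathepsin genes had the largest summed count of the 7 roles, 100 in KC-H, 78 in KC-N and 57 to 70 in the other lists. The roles differ in gene number, and in KC-H the 4 MiT/TFE genes had 54. Ctsb, a cysteine protease gene (chromosome 14, 63122462 to 63145923), had 20 peaks in KC-H, 14 in KC-N, 12 in KN-RM, 11 in Ly6CLo-RM, 9 in Ly6CHi-RM and 9 in blood. The F4/80-high lists stood above the others both in the deposited lists and in equal-length lists, which held 13, 12, 12, 7, 7 and 5. Inside Ctsb itself the deposited lists held 13, 9, 8, 9, 7 and 8 peaks in the same order, which did not separate the gates. The region of Ctsb at 63128936 to 63129155, inside the gene, was held by the F4/80-high lists alone, with a score of 121 in KC-H (percentile 88.5), 79 in KC-N (percentile 86.6) and 70 in KN-RM (percentile 90.3). A blood centre lay 214 bp and a Ly6CLo-RM centre 219 bp from the KN-RM peak, so the site was beside open chromatin in those cells too. A second such region of Ctsb, at 63111712 to 63111941 and 10636 bp outside the gene, had low ranks (percentiles 15.3 to 28.3).

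Ctsc, whose product activates granule proteases (chromosome 7, 88278024 to 88315861), had 23, 19, 10, 12, 16 and 16 peaks in KC-H, KC-N, KN-RM, Ly6CLo-RM, Ly6CHi-RM and blood. Equal-length lists held 11, 13, 10, 9, 5 and 5. Most of them lay outside the gene: inside it were 7 in KC-H, 4 in KC-N, 1 in KN-RM, but 0 in the other 3 lists. Ctsd, which encodes the main aspartic protease of the lysosome, had 20 peaks in KC-H, 11 in KC-N, 8 in KN-RM and Ly6CLo-RM, and 9 in Ly6CHi-RM and blood. Of its 21 merged regions, 10 were in KC-H alone; with equal-length lists Ctsd had 8 in each list except blood, with 7.

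Among the remaining cathepsin genes Ctss varied least. Ctss, whose product trims the invariant chain in antigen presentation, had 5 in every list, deposited or equal-length, and all 5 regions were in all lists. Ctsz had 7 or 8, Ctse 6 to 8 and Ctsh 5 to 8. Ctsl had 7 in KC-H and KC-N, 3 in KN-RM and Ly6CLo-RM, 5 in Ly6CHi-RM and 4 in blood. Ctsk had 1 or 2, all outside the gene. Ctsf had 2 peaks in KC-H, at chromosome 19, 4855052 to 4855252 and 4856363 to 4856563, and 0 in the other 5 lists, the sole gene of the set with a list at 0. Its nearest KC-N centre was 15801 bp away.

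Psap, Lipa and Npc2 led the lipid group. Psap encodes prosaposin, the precursor of activators of sphingolipid breakdown (chromosome 10, 60277628 to 60302600), and had 24, 19, 12, 12, 16 and 13 peaks in KC-H, KC-N, KN-RM, Ly6CLo-RM, Ly6CHi-RM and blood. With equal-length lists these were 13, 13, 12, 8, 10 and 8. Inside Psap there were 12 peaks in KC-H, 7 in KC-N, 5 in KN-RM, 3 in Ly6CLo-RM, 6 in Ly6CHi-RM and 3 in blood. Lipa, the acid lipase that frees cholesterol from lipoproteins, had 13, 11, 10, 8, 10 and 9 peaks, and 8, 7, 10, 6, 7 and 3 with equal-length lists. Its start peak ranked at percentiles of 95.4 to 97.8 in every list. Npc2, which hands cholesterol to Npc1, had 7 to 10 peaks and a start at percentiles of 98.8 to 99.6. The sphingolipid enzyme genes Asah1 and Smpd1 had 3 to 7 and 1 or 2 peaks.

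Glycosidases and other hydrolases had few peaks each and no gene that separated the sort gates. Ppt1 had 5 to 8, Hexa 4 to 8, Gusb 4 or 5, and Ctsa 6 in KC-H and 1 to 3 elsewhere. Gla, Glb1, Tpp1, Neu1 and Man2b1 had 2 to 4 and Gaa 1 or 2. Gusb, the beta-glucuronidase gene, had a region inside it at chromosome 5, 129995097 to 129995297, in KC-N (score 58, percentile 74.3). It was also in KN-RM and in no other list, and the nearest KC-H centre was 5151 bp away. Summed over these 10 genes, equal-length lists held 21 peaks in blood and 24 to 27 in the other 5.

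Pump subunit genes had from 2 merged regions, at Atp6v1f and Atp6v1h, to 22, at Atp6v1c1. In the V0 sector, Atp6v0d2, the d subunit form of osteoclasts and some macrophages (chromosome 4, 19876838 to 19922566), had 12 peaks in KC-H, 14 in KC-N, 9 in KN-RM, 5 in Ly6CLo-RM, 7 in Ly6CHi-RM and 9 in blood. Equal-length lists held 10, 11, 9, 3, 4 and 7, with each F4/80-high list above each of the others. Inside Atp6v0d2 itself the deposited lists held 6, 6, 6, 4, 5 and 6 peaks in the same order, which did not separate the gates. The ubiquitous form, Atp6v0d1, had 5, 2, 1, 4, 5 and 5, and 1 or 2 with equal-length lists. Atp6v0d2 held 3 regions found in the F4/80-high lists alone, at 19869585 to 19869795, at 19898120 to 19898326 and at 19942239 to 19942519. The last, 19813 bp outside the gene, ranked at percentiles of 73.2, 76.5 and 41.1 in KC-H, KC-N and KN-RM. Atp6v0c, which encodes the proteolipid of the proton-carrying ring, had 7 to 9 peaks and 7 of 9 merged regions in all lists. Atp6v0a1 had 3 in KC-H, 4 in KC-N and KN-RM, 6 in Ly6CLo-RM and blood, and 7 in Ly6CHi-RM, and Atp6v0b had 2 or 3.

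In the V1 sector, Atp6v1a, the catalytic subunit (chromosome 16, 44085402 to 44139702), had 12 peaks in KC-H, 14 in KC-N, 7 in KN-RM, 5 in Ly6CLo-RM, 6 in Ly6CHi-RM and 5 in blood, and 6, 9, 7, 4, 4 and 3 with equal-length lists. It separated the sort gates in both. At most 1 of them in any list lay outside Atp6v1a, and those inside stood at 2.21 per 10 kb in KC-H and 2.39 in KC-N against 0.737 in Ly6CLo-RM and blood. Regions held by the F4/80-high lists alone lay at 44118147 to 44118358, 44126514 to 44126717 and 44130524 to 44130758 of Atp6v1a. The last ranked at percentiles of 76.6, 64.2 and 52.9 in KC-H, KC-N and KN-RM, and the nearest centre of Ly6CLo-RM was 7838 bp away. A further 4 regions of Atp6v1a were in KC-H and KC-N alone.

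Atp6v1c1, whose product joins the sectors of the pump, had 14, 12, 7, 12, 15 and 11 peaks, and 8, 12, 7, 7, 7 and 7 with equal-length lists. Atp6v1b2, the B subunit form of most tissues, had 5, 4, 2, 4, 4 and 3, with 2 in each F4/80-high list and 1 in each other list at equal length. Its best peak in KN-RM, the list left uncut, scored 20 (percentile 3.60). Atp6v1g1 had 6 peaks in KC-H, 2 in KC-N and KN-RM, and 1 in the other 3. Atp6v1f had 2 in every list, Atp6v1d 2 or 3, Atp6v1e1 3 or 4 and Atp6v1h 1 or 2.

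**Figure D3:**
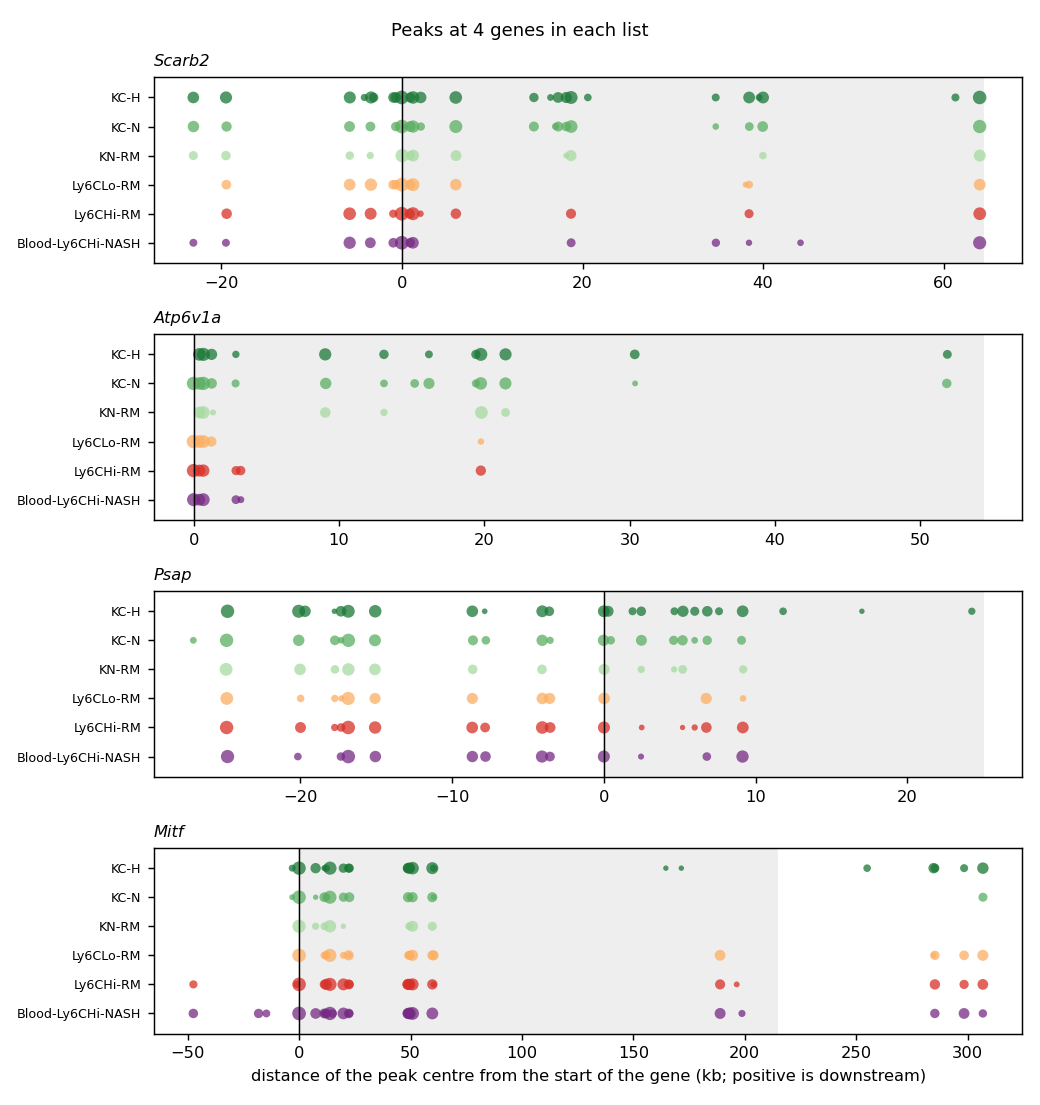
Position of the peaks of Scarb2, Atp6v1a, Psap and Mitf in each deposited list, as distance of the peak centre from the gene start in kb (positive is downstream); each dot is a peak, larger dots have a higher rank within their list, and the shaded band is the gene. Atp6v1a has 12, 14 and 7 peaks in the F4/80-high lists and 5, 6 and 5 in the others, and at Mitf a dot 189 kb downstream appears in Ly6CLo-RM, Ly6CHi-RM and blood alone.

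Set side by side, the sort gates divided more of these genes one way than the other. In equal-length lists, 7 of the 47 genes (14.9%) had more peaks in each F4/80-high list than in any of the other 3, against a background of 7.29% of 13972 genes. They were Scarb2, Ctsb, Atp6v0d2, Ctsc, Psap, Atp6v1a and Atp6v1b2. The opposite order held for Mitf alone (2.13%), against a background of 7.74%. At Atp6v1b2 the order rested on 2 peaks in each F4/80-high list against 1 in each other list. Its KN-RM peaks ranked no higher than percentile 3.60 and were kept because KN-RM, the shortest list, was not cut. With peaks ranked by tag count, neither Atp6v1b2 nor Mitf separated the gates. The mean over the F4/80-high lists exceeded that over the others by 6.67 peaks at Scarb2, 6.00 at Ctsb, 5.33 at Atp6v0d2, 5.00 at Ctsc, 4.00 at Psap, 3.67 at Atp6v1a and 3.00 at Lipa. That mean was higher at 31 of the 47 genes, lower at 7 and equal at 9, with a median difference of 0.333. Over all genes tested it was higher at 35.1%, lower at 40.0%, and the median difference was 0. This grouping of the lists was made after the values were seen. The backgrounds were not matched for the number of peaks per gene, and the genes described here have more peaks than most. In the deposited lists the order held for 3 genes, Ctsb, Atp6v1a and Atp6v1g1 (6.38%), and its reverse for 2, Ctse and Atp6v0a1 (4.26%), against 1.70% and 13.8% of 15890 genes.

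**Figure D4:**
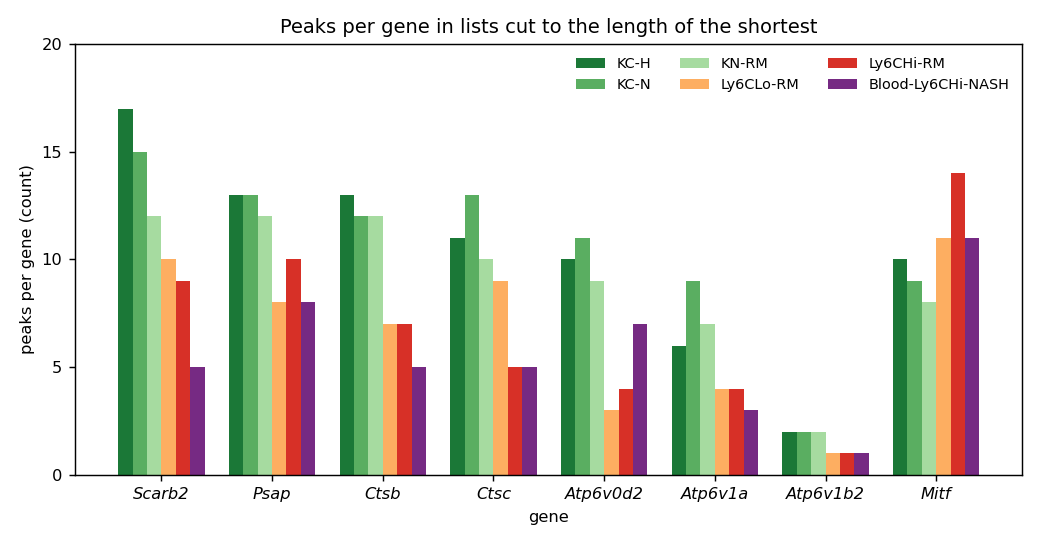
Peaks per gene in equal-length lists at the genes where the 3 F4/80-high lists (KC-H, KC-N, KN-RM) and the other 3 lists did not overlap; each bar is 1 list, bars start at 0, and the horizontal axis names the gene. At Scarb2 the F4/80-high lists have 12 to 17 peaks and the others 5 to 10, and Mitf has the reverse order, with 8 to 10 against 11 to 14. With peaks ranked by tag count, Atp6v1b2 and Mitf did not separate the gates.

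Markers of other cell types moved with the gates at a few genes. Of 10 liver endothelial and stellate markers, Stab2 and Pdgfrb had more peaks in each F4/80-high list, Clec4g and Kdr had fewer, and the summed count was 17 to 19 against 11 or 12. Stab2 made up most of it, with 10, 9 and 7 peaks against 1 in each other list, while Lyve1, Reln, Lrat and Dcn were at 0 in all equal-length lists. Kupffer cell markers had 30 to 51 peaks against 11 or 12, monocyte markers 10 to 15 against 15 to 22, and dendritic cell markers 10 to 12 against 15 to 21. Of the 8 Kupffer cell markers, Clec4f, Cd5l, Id3 and Spic had more peaks in each F4/80-high list. Vsig4 did not, with 1 in each against 1, 1 and 2, nor did Nr1h3, with 3, 3 and 2 against 2 in each. Timd4 had 7, 0 and 0 and Marco 10, 2 and 0, against 0 or 1. Of the 8 monocyte markers, Ly6c2 went against the sum, with 3 peaks in each F4/80-high list against 2, 2 and 1. S100a4 went with it, with 0 in each against 2, 1 and 2, and the others did not separate the gates. Of the 8 dendritic cell markers Flt3 alone separated the gates, with 0, 1 and 1 against 4, 4 and 8, and Clec9a and Cd209a were at 0 in all equal-length lists. None of the 8 hepatocyte markers or the 10 T, NK and B cell markers separated the gates. The hepatocyte markers had 4 peaks in blood and 0 or 1 in each other list. Alb had 3 of these, and 11 in the deposited blood list against 0 or 1 in each other deposited list. The T, NK and B cell markers had 4 to 8 peaks in each list. The part of cell makeup in the counts at the lysosomal genes was not tested.

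Other genes of the same pathway, which are not among the 47, were counted in the same equal-length lists. Of 29 further lysosomal hydrolase genes, 8 had more peaks in each F4/80-high list and 1, Ctso, had fewer. Lgmn, the asparaginyl endopeptidase that processes cathepsins, had 13, 13 and 12 peaks against 5 or 6. Grn, which encodes progranulin, had 6, 6 and 7 against 3 or 4. Of 20 other V-ATPase subunits and partners, 2 had more, Atp6v0a2 and Atp6v1g3, and 0 had fewer. Of 25 other lysosomal membrane proteins, 4 had more, Slc38a9, Slc17a5, Tmem175 and Mcoln3, and 1 had fewer, the channel gene Tpcn1. The amino acid sensor gene Slc38a9 had 8, 9 and 8 against 4 to 6. Nutrient sensing genes of the lysosome surface (24) gave 1 with more, Fnip2, and 2 with fewer, Lamtor5 and Rragb. Autophagy genes (23) gave 3 with more, Ulk2, Atg5 and Rb1cc1, and 4 with fewer, Map1lc3b, Wipi1, Atg7 and Tecpr1. These counts stand beside the 7.29% and 7.74% of all genes tested, and the genes named were chosen after their values were seen. In the comparison of KC-H with KC-N described next, genes with list-specific regions were 2 of the hydrolases in each direction, 2 and 1 of the pump partners, 2 and 3 of the membrane proteins, 1 and 0 of the nutrient sensing genes, and 4 and 0 of the autophagy genes; the first number of each pair is for KC-H, where 9.84% of all genes tested had one, and the second for KC-N, with 5.39%. The phospholipase gene Pla2g15 had 2 such regions in KC-H and 1 in KC-N, and Fnip2 had 2 in KC-H.

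Pairs of lists were compared by list-specific regions: a peak counted where it was in the better-scored 50% of its list and did not overlap, even by 1 bp, any peak of the other list as deposited. A gene was called where it had at least 1. There were 93 such regions at 27 of the 47 genes, summed over 6 comparisons and both directions, and 20 genes had none. Genes with more peaks have more chances of a call, and the genes described here have more peaks than most, so the share of their high-scoring peaks that was list-specific is given as well. Comparisons that share a list are not independent of each other.

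The NASH diet was compared with the control diet in Tim4-positive Kupffer cells. KC-N had 9 list-specific regions at 8 of 47 genes (17.0%, background 5.39%), which were 5.23% of its 172 high-scoring peaks at these genes (2.78% to 9.64%) against 3.73% for all its high-scoring peaks. Atp6v0d2 had 2 of them, at chromosome 4, 19918982 to 19919182 and 19922468 to 19922668, with scores of 41 and 39. Both were in KC-N and in no other list, the second straddled an end of the gene, and the nearest KC-H centres were 8117 and 4631 bp away. Atp6v0a1 and Gusb had 1 each, with the nearest KC-H centre 5033 and 5151 bp away, while those of Atp6v1c1, Atp6v1h, Ctsb, Ctsl and Ctsz had a KC-H centre within 204 to 409 bp.

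KC-H had 7 such regions at 6 genes (12.8%, background 9.84%), or 3.37% of its 208 high-scoring peaks (1.64% to 6.78%) against 5.69%. They were at Ctsb, Ctsf, Gaa, Mitf, Psap and Scarb2, 2 of them at Mitf. Those at Ctsf and one at Mitf had no KC-N centre within 1000 bp. With equal-length lists KC-H had 0 and KC-N had 7, whereas with all peaks in place of the better-scored ones KC-H had 99 and KC-N 28.

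KC-N was then set against KN-RM, the Tim4-negative Kupffer cells of the same diet. KC-N had 12 regions at 8 of 46 genes (17.4%, background 9.83%), or 6.98% of its high-scoring peaks at these genes (4.04% to 11.8%) against 6.32%. KN-RM had 0 (background 1.17%), or 0 of 123 high-scoring peaks, against 1.03% for all genes. For this 0 the upper Wilson bound is 3.03%, and 3 counts would be 2.44%. The KC-N regions were at Atp6v0d2, Atp6v1c1, Ctsc and Tfec with 2 each and at Atp6v1a, Atp6v1h, Ctsb and Tfeb with 1 each. One of Atp6v1c1, at chromosome 15, 38691377 to 38691577, lay 18901 bp from the nearest KN-RM centre. Equal-length lists gave 2 and 1.

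Blood monocytes were compared with Ly6C-high macrophages of the liver, and few regions differed. The blood list had 2 at 2 of 46 genes (4.35%, background 4.53%), at Atp6v1c1 and Mitf, or 1.29% of its high-scoring peaks (0.355% to 4.58%) against 2.18%. Ly6CHi-RM had 3 at 3 genes (6.52%, background 2.98%), which were the Tfeb region missing from blood and 1 each at Scarb2 and Ctsz. Per high-scoring peak this was 1.74% (0.595% to 5.00%) against 1.67% for all genes. At Scarb2 the peak lay at chromosome 5, 92499583 to 92499783, inside the gene, and was in all 5 liver lists; the nearest blood centre was 4759 bp away. In the liver, Ly6CHi-RM had 5 regions absent from Ly6CLo-RM at 5 of 46 genes (10.9%, background 6.86%), and Ly6CLo-RM had 1, at Ctsb (2.17%, background 4.54%). Per high-scoring peak the former was below the figure for all genes, 2.91% (1.25% to 6.62%) against 3.89%, and so was the latter, 0.641% (0.113% to 3.54%) against 2.96%. The 5 were at Atp6v0d2, Atp6v1b2, Atp6v1c1, Ctsz and Tfeb. That of Atp6v0d2, at chromosome 4, 19927092 to 19927292, was in every list except Ly6CLo-RM, whose nearest centre was 25885 bp away.

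KN-RM was also compared with the Ly6C-low macrophages of the CD11b-high gate and with blood monocytes. Ly6CLo-RM had 16 regions absent from KN-RM at 13 of 46 genes (28.3%, background 23.4%), or 10.3% of its high-scoring peaks (6.41% to 16.0%) against 18.9% for all genes. The blood list had 20 at 13 genes (28.3%, background 39.1%), or 12.9% (8.51% to 19.1%) against 32.6%. Per high-scoring peak, absence from KN-RM was thus below the figure for all genes in both. The intervals cover counting error only and take peaks as independent, although several lie at the same gene, so they are no test of this difference. Mitf had 4 of the 20 and Atp6v1c1 had 3.

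In the other direction KN-RM had 7 regions absent from Ly6CLo-RM at 6 genes (13%, background 5.01%), or 5.69% (2.78% to 11.3%) against 5.39%. It had 11 absent from blood at 9 genes (19.6%, background 5.64%), or 8.94% (5.07% to 15.3%) against 7.03%. The Ctsb and Atp6v1a regions given above were in both. Atp6v1a had another against blood, at chromosome 16, 44119810 to 44120010, with a score of 59 (percentile 84.0) and the nearest blood centre 16552 bp away. List length turned the balance: equal-length lists gave 13 for KN-RM and 2 for Ly6CLo-RM, and 29 for KN-RM and 1 for blood.

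Overlapping peaks of the 6 lists were merged into 480 regions at the 47 genes. All 6 lists held 164 of them (34.2%, 30.1% to 38.5%), against 25.9% of 95372 merged regions at all protein-coding genes. One list alone held 127 (26.5%) against 27.3%. Regions in KC-H alone were 67 (14.0%, 11.1% to 17.3%) against 9.63%, and those in both Tim4-positive lists alone were 30 (6.25%, 4.41% to 8.78%) against 3.53%. Regions in the blood and both CD11b-high lists alone were 14 (2.92%, 1.75% to 4.84%) against 5.67%, and those in blood alone were 28 (5.83%, 4.07% to 8.30%) against 9.58%. The F4/80-high lists alone held 13 (2.71%, 1.59% to 4.58%) against 1.84%: 3 each at Atp6v0d2 and Atp6v1a, 2 each at Ctsb and Scarb2, and 1 each at Ctsc, Lipa and Psap. Equal-length lists gave 297 merged regions at these genes and 54204 at all genes, and changed several of these shares. Regions in 1 list fell to 46 (15.5%, 11.8% to 20.0%) against 23.1%, and those in the blood and both CD11b-high lists alone to 1 (0.337%, 0.0595% to 1.88%) against 3.92%. Those in KC-H alone were 14 (4.71%, 2.83% to 7.76%) against 5.01%, and those in the F4/80-high lists alone 14 (4.71%) against 4.78%, so neither stood above the share for all genes. Those in all 6 lists remained more frequent, with 117 (39.4%, 34.0% to 45.1%) against 33.2%. Regions in all 5 liver lists and not in blood rose to 24 (8.08%, 5.49% to 11.7%) against 2.45%. They had been 8 (1.67%, 0.847% to 3.25%) against 0.923% in the deposited lists. Cutting the blood list removes its lower-scored peaks, so absence from the cut list is not absence from blood. With KN-RM left out, 43 regions were in KC-H and KC-N and in none of the other 3 lists.

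The regions in KC-H alone were weak. Their median percentile was 19.6 and 2 of the 67 were in the better-scored 50% of the list, at Ctsf and Psap. They lay at 26 genes, 47 inside the gene and 20 outside, with 10 at Ctsd, 6 each at Ctsb, Psap and Scarb2, and 5 at Ctsc. Shares in all lists ran from 0 of 7 regions at Atp6v1b2 and 0 of 2 at Ctsf to 5 of 5 at Ctss and 2 of 2 at Atp6v1f. Among the genes with the most regions, the share was low at Mitf, with 6 of 32 (18.8%), at Ctsc, with 7 of 33 (21.2%), and at Scarb2, with 7 of 29 (24.1%).

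**Figure D5:**
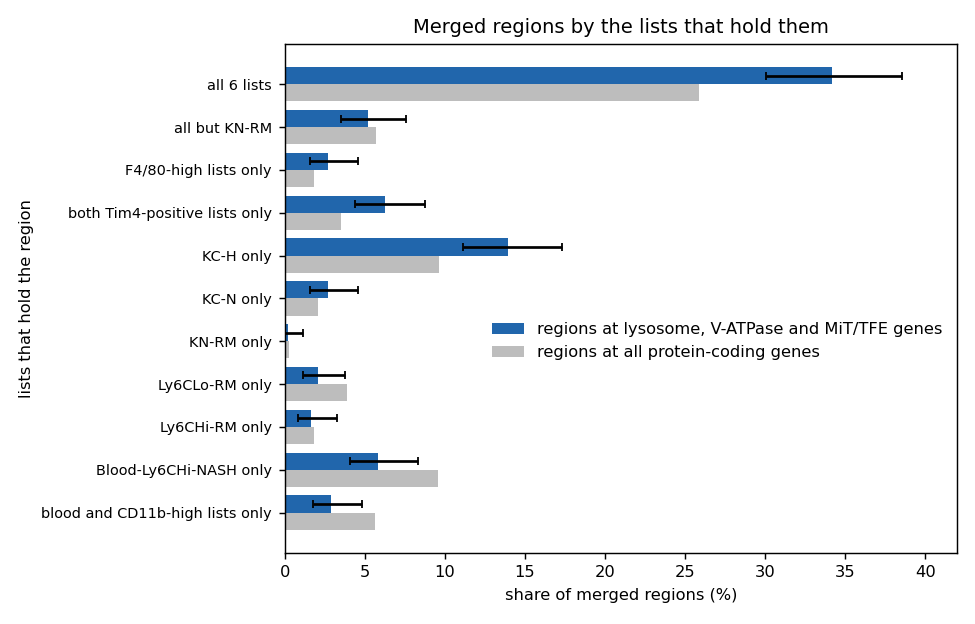
Share of merged regions, in percent, by the lists that hold them, for the 480 regions at the 47 genes and the 95372 at all protein-coding genes; bars start at 0 and error bars on the 480 regions are 95% Wilson intervals, which cover counting error only. Regions in all 6 lists make up 34.2% against 25.9%, those in KC-H alone 14.0% against 9.63%, and those in blood alone 5.83% against 9.58%.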

How the data were processed

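ATAC-seq peak lists of 6 groups, each made by the authors from 2 libraries, were analysed. Per the submitters' processing notes, Bowtie2, HOMER and DESeq2 were used, without versions or roles, on mm10 (GRCm38); the sources used here do not give read filters or any shift of reads for the transposase. Each deposited list gives a normalized tag count per peak (a signal, in the authors' scaling) and a whole-number score. Both are the authors' own values and were used to rank peaks within a list; within each list they ranked peaks alike (Spearman's rho across peaks 0.955 to 0.986). The depth per library is unknown, and nearly all peaks were 200 bp wide. Gene positions, without exons or introns, and start windows came from RefSeq tables of GRCm38.p6.

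The 47 genes, the other gene lists and the rules were chosen with earlier results of these data known. Named were the 4 MiT/TFE genes, Atp6v0d2, genes with a list-specific region, the 10 with the most peaks, those with 0 in a list, and the widest and narrowest range per role. The grouping by sort gate was added after the data were seen. Alternatives were equal-length lists, a 20 kb window, 1 gene per peak, overlap of 50% or by distance (no centre within 1000 bp), all peaks, merging within 200 bp, window overlap of 100 bp, rank by tag count, and lists left out. Intervals are 95% Wilson intervals and cover counting error only. Functions were tested on simulated lists. Tools were Python 3.11.15 with matplotlib 3.10.9, scipy 1.17.1, pandas 2.3.3 and numpy 2.4.6.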

Additional observations from a re-analysis of the deposited data

How the results depend on the processing

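No paired analysis was possible because each list was made from both libraries of its group and holds no value per library; leaving out a library was not possible for the same reason. Equal-length lists moved the peaks at the 47 genes to 221 in KC-H, 192 in Ly6CHi-RM and 153 in blood, the regions in 1 list to 46 and those in the blood and CD11b-high lists alone to 1. They moved list-specific regions to 0 in KC-H against KC-N, 2 in KC-N against KN-RM and 1 the other way, 0 in blood against Ly6CHi-RM, 1 in Ly6CHi-RM and 2 in Ly6CLo-RM against each other, 2 in Ly6CLo-RM and 13 in KN-RM against each other, and 1 in blood and 29 in KN-RM against each other. With all peaks of a list, the counts in these pairs were 99 in KC-H and 28 in KC-N, 98 in KC-N and 8 in KN-RM, 37 in blood and 42 in Ly6CHi-RM, 56 in Ly6CHi-RM and 20 in Ly6CLo-RM, 77 in Ly6CLo-RM and 34 in KN-RM, and 115 in blood and 39 in KN-RM. By distance, 2 were left in KC-H and 4 in KC-N, 1 in blood against Ly6CHi-RM, 3 in Ly6CHi-RM and 0 in Ly6CLo-RM, 5 in Ly6CLo-RM against KN-RM, and 7 in KN-RM against blood. With an overlap of 50%, KC-H and KC-N had 15 each and KN-RM 3 against KC-N. Without KN-RM, the regions of the F4/80-high lists alone were 43. Genes with more peaks in every F4/80-high list were 3 in the deposited lists; those with fewer were 2 there, 0 when ranked by tag count and 2 without the blood list. The cause of these moves was not tested beyond what each setting does to list length or overlap. The 20 kb window, 1 gene per peak, merging within 200 bp and window overlap of 100 bp left every count they were run on within 1.5 times. KN-RM is the shortest list, so a region absent from it is weaker evidence than absence from another list. Several list-specific regions have a peak of the other list close beside them.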
